A study of Mus musculus with 60 samples.

Results

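The 32 genes described here encode the enzymes and carriers that move glucose into cells, break it down and make it anew. They are 5 facilitative hexose transporters (Slc2a1 to Slc2a5), 3 hexokinases (Hk1, Hk2, Hk3), glucose-6-phosphate isomerase (Gpi1), 3 phosphofructokinases (Pfkl, Pfkm, Pfkp), 2 aldolases (Aldoa, Aldoc), triosephosphate isomerase (Tpi1), glyceraldehyde-3-phosphate dehydrogenase (Gapdh), phosphoglycerate kinase (Pgk1), 2 phosphoglycerate mutases (Pgam1, Pgam2), 3 enolases (Eno1, Eno2, Eno3), 2 pyruvate kinases (Pklr, Pkm), 2 lactate dehydrogenase subunits (Ldha, Ldhb), and, for gluconeogenesis, 2 phosphoenolpyruvate carboxykinases (Pck1, Pck2), 2 glucose-6-phosphatase subunits (G6pc, G6pc3) and 2 fructose-1,6-bisphosphatases (Fbp1, Fbp2). They were chosen by name, and each symbol was found among the 54532 genes of the count table. Of the 32, 31 had enough reads to be tested. The exception was Pgam1, with 129 reads in all 60 libraries.

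Glycolysis splits glucose into pyruvate in the cytosol, and most of its steps are served by more than one isoenzyme, each encoded by its own gene and used by different cells. The phosphorylation of glucose, the phosphofructokinase step and the pyruvate kinase step run in one direction, and gluconeogenesis, best known from liver, kidney cortex and small intestine, goes around them with phosphoenolpyruvate carboxykinase, fructose bisphosphatase and glucose-6-phosphatase. Lactate dehydrogenase is a tetramer of A and B subunits. The A subunit is known from tissues that make lactate, the B subunit from tissues such as heart that oxidise it.

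RNA came from 15 tissues of female C57BL6/J mice of 6 weeks, 4 replicates of each, in a study of immune processes across the whole body. Their vessels had been flushed by cardiac perfusion (EDTA in buffered saline), and the labels give no other treatment, genotype or age. The tissues were liver, kidney, small intestine, colon, heart, skin, brain, lung, female reproductive tract, blood, bone marrow, spleen, thymus, and inguinal and mesenteric lymph node. Blood is titled as mononuclear cells while its tissue label reads whole blood. No label says whether equal replicate numbers mark one mouse, so the p-values here measure the spread between these libraries.

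Reads were taken from the 3' ends of polyadenylated RNA, and library totals ran from 353605 to 5211133 reads (median 2649668). Levels are given as CPM (counts divided by the library total, scaled by the TMM method), and one gene is compared between tissues, since levels of different genes are not divided by length. Mitochondrially encoded RNA took 54.1% to 56.2% of heart reads, 36.03% to 38.1% of kidney reads and 1.89% to 2.34% of lung reads. With plain library totals in place of TMM the median log2 fold change of all genes moved by -1.26 in heart, -0.98 in liver and between -0.43 and 0.45 in the other tissues, so changes are read relative to that shift. Hepatocyte, proximal tubule, enterocyte, colonocyte, cardiomyocyte, neuron, keratinocyte, lung epithelium, thymocyte and uterine marker lists each had their highest summed level in the tissue of that name. Skin also held 11478 to 15754 CPM of 6 skeletal muscle markers, against 1050.2 to 1316 in heart. Liver replicates 3 and 4 held 234 and 544 CPM of them, against 6.04 and 16.6 in replicates 1 and 2, and lung replicate 4 held 177. Brain replicate 3 had 89.6 CPM of enterocyte markers and thymus replicate 3 25.6 CPM of proximal tubule markers. Replicates 3 and 4 of the female reproductive tract had 353605 and 1028920 reads. These 7 libraries were left out in an alternative. In whole tissue, fewer cells of a type and less RNA per cell cannot be told apart.

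Heart had the highest mean level of 12 of the 32 genes, liver of 5, brain and small intestine of 4 each, colon of 3, bone marrow of 2, and kidney and blood of 1 each. In 22 of the 32, every library of the highest tissue lay above every library of the other 14. These counts were not made over all genes, so they are not read as particular to the members. The other tissues, among them spleen, thymus, both lymph nodes, lung and the female reproductive tract, were highest for none. With plain library totals 23 of the 32 kept their highest tissue. Heart then led in 6 (Hk2, Pfkm, Gapdh, Pgam2, Eno3, Slc2a4). The genes that moved were Hk1, Gpi1 and Ldha to colon, Pfkp and Pkm to brain, Pgk1 and Ldhb to kidney, Tpi1 to small intestine and Aldoa to skin.

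**Figure D1:**
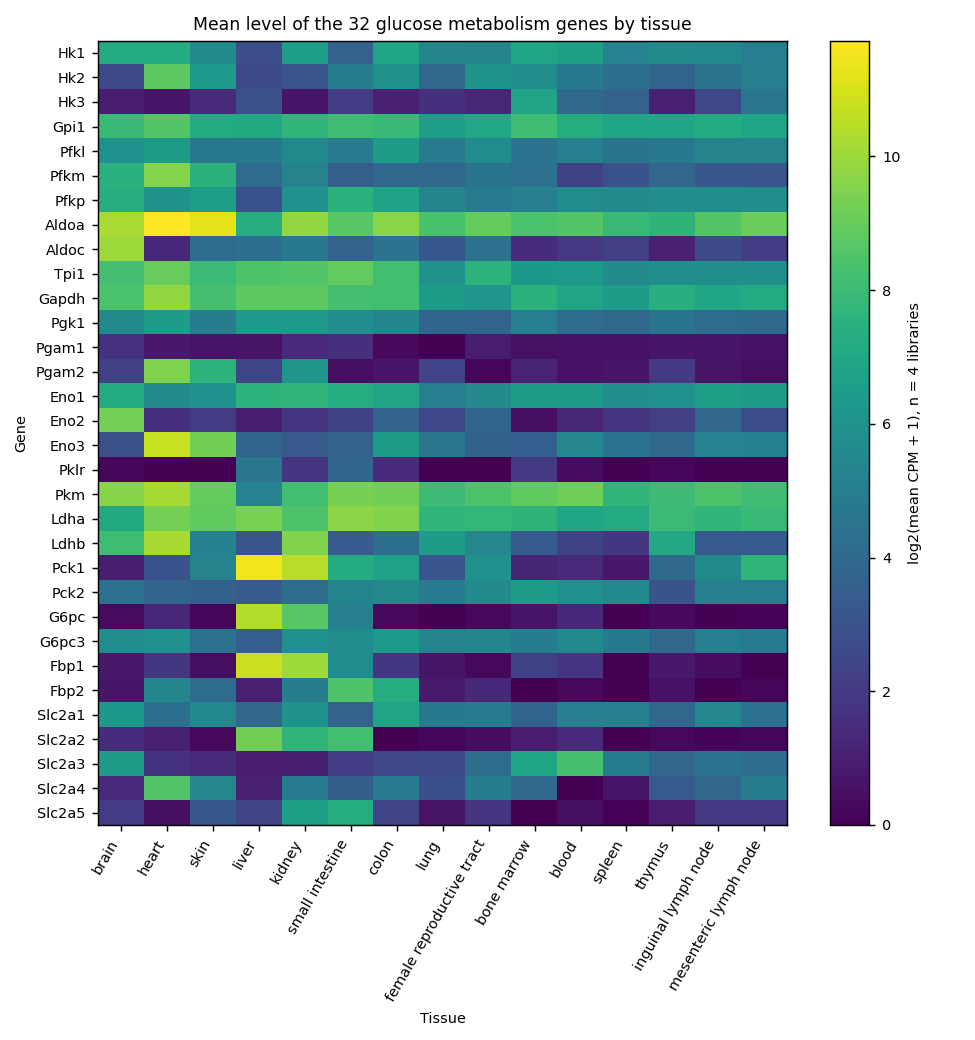
Mean level of each of the 32 genes (rows) in each of the 15 tissues (columns), as log2 of the mean CPM of 4 libraries plus 1, from dark (no reads) to bright. Aldoa in heart, at 3400.3 CPM, and Pck1 in liver, at 2840.4 CPM, are the brightest cells, and Pgam1 is dark across its row.

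Each tissue was compared with the mean of the other 14 in one edgeR fit of 60 libraries, where a call, higher or lower, needed an adjusted p under 0.05 with a log2 fold change beyond 1. In total 111 calls were higher and 96 lower, sums to be read through the tissues below, where the share of all genes stands beside each count. Counts under other scalings, tests or sets of libraries, here and below, lack the share of all genes in that setting. They show only how far the members' counts moved. 16 of 31 members (51.6%) were called higher in heart, where 20.7% of all genes were, and 6 (19.4%) were called lower, where 12.9% were. The median log2 fold change of the members in heart was 1.14, beside -0.12 for all genes. With library totals the heart counts became 8 higher and 9 lower. In kidney, 16 of 31 members (51.6%) were called higher, where 21.8% of all genes were, and 4 (12.9%) were called lower, where 9.51% were. Its median was 1.14, beside 0.03 for all genes, and 0.75 over the 24 members with reads in every tissue. With library totals kidney had 12 higher and 6 lower. In colon, 15 of 31 members (48.4%) were called higher, where 17.7% of all genes were, and 3 (9.7%) were called lower, where 14.4% were. Without replicate 1 no member was called lower in colon, and without replicate 2 the higher calls were 11. Liver was split: 11 of 31 members (35.5%) were called higher, where 18.4% of all genes were, and 12 (38.7%) were called lower, where 16.7% were. With library totals liver had 5 higher and 15 lower. Member medians were 1.02 in colon and -0.55 in liver, beside -0.15 and -0.25 for all genes. Over the 24 members with reads in every tissue the medians were 1.28 in heart, 0.94 in colon and -0.88 in liver. The medians of all genes were not limited in that way.

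In brain, 11 of 31 members (35.5%) were called higher, where 27.7% of all genes were, and 5 (16.1%) were called lower, where 16.1% were. The brain counts were the same with library totals. With either of 2 other tests, DESeq2 on counts and limma-trend on log2 CPM, 9 were lower. In small intestine, 10 of 31 members (32.3%) were called higher, where 19.9% of all genes were, and 7 (22.6%) were called lower, where 8.5% were. 8 of 31 members (25.8%) were called higher in skin, where 18.4% of all genes were, and 3 (9.7%) were called lower, where 6.38% were, or 6 with DESeq2 or limma-trend. With TMM scaling the 6 immune tissues each had more lower than higher calls. 4 of 31 members (12.9%) were called higher in blood, where 18.1% of all genes were, and 8 (25.8%) were called lower, where 17.8% were. For bone marrow, 6 of 31 members (19.4%) were called higher, where 17.6% of all genes were, and 9 (29%) were called lower, where 16.1% were. 2 of 31 members (6.5%) were called higher in spleen, where 17.8% of all genes were, and 10 (32.3%) were called lower, where 9.16% were. In thymus, where Ldhb was the gene called higher, 1 of 31 members (3.2%) was called higher, where 18.9% of all genes were, and 9 (29%) were called lower, where 12.1% were. With DESeq2, as with limma-trend, 17 members were lower in spleen and 14 in thymus. The median log2 fold changes of the members were 0.64 in brain, 0.61 in small intestine, 0.48 in skin, -0.23 in blood, -0.41 in bone marrow, -1.17 in spleen and -0.82 in thymus, beside 0.03, 0.01, -0.04, -0.18, -0.21, -0.02 and 0.0039 for all genes. Over the 24 members with reads in every tissue they were, in the same order, 0.78, 0.29, 0.50, -0.15, -0.43, -0.82 and -0.57.

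For the lymph nodes the count of lower calls depended on the test. 2 of 31 members (6.5%) were called higher in inguinal lymph node, where 17.1% of all genes were, and 4 (12.9%) were called lower, where 6.7% were. 3 of 31 members (9.7%) were called higher in mesenteric lymph node, where 17.2% of all genes were, and 6 (19.4%) were called lower, where 4.57% were. Lower calls were 10 in inguinal and 11 in mesenteric lymph node with DESeq2, and 9 and 10 with limma-trend. 1 of 31 members (3.2%) was called higher in lung, where 16.8% of all genes were, and 5 (16.1%) were called lower, where 12.3% were, and the one called higher was Ldhb. Lower calls in lung were 8 with DESeq2 and 12 with limma-trend. 5 of 31 members (16.1%) were called higher in female reproductive tract, where 23.1% of all genes were, and 5 (16.1%) were called lower, where 5.31% were. The 5 lower calls became 2 without the 7 libraries named above, 3 without replicate 3 or 4, and 12 with limma-trend. With library totals the split moved to 9 higher and 2 lower in the reproductive tract, 1 and 1 in lung, 3 and 6 in spleen, 1 and 5 in thymus, 18 and 0 in colon, 4 and 4 in inguinal and 4 and 5 in mesenteric lymph node. Here the medians were -0.24 in inguinal lymph node, -0.38 in mesenteric lymph node, -0.76 in lung and -0.16 in female reproductive tract, beside 0.05, 0.03, -0.23 and 0.08 for all genes. Over the 24 members with reads in every tissue they were, in the same order, -0.14, -0.25, -0.52 and -0.09.

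Among the transporters, each of the 5 had its own set of tissues. Positions are from GENCODE in build mm10. Slc2a1 (ENSMUSG00000028645, chromosome 4, 119108711 to 119137983) encodes GLUT1, the carrier of the blood-brain barrier and of many epithelia. It was highest in colon, at 142, 103, 103 and 109.6 CPM in replicates 1 to 4, and next in brain, at 60.8, 82.2, 73.9 and 87.2 CPM. The colon libraries all lay above the brain libraries. Slc2a1 was called higher in colon (log2 fold change 2.10 ± 0.13, edgeR adjusted p = 9.09e-21), and in brain (1.47 ± 0.12) and kidney (1.15 ± 0.13). The kidney call was lost with library totals, where the log2 fold change was 0.71. Small intestine, at 9.66 to 14.8 CPM, was called lower (-1.32 ± 0.19), and bone marrow, liver and thymus overlapped it.

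Slc2a2 (ENSMUSG00000027690, chromosome 3, 28697903 to 28731359) encodes GLUT2, the low-affinity carrier through which liver, kidney and gut release glucose. Its levels were 584, 677, 619 and 483 CPM in liver, 354, 229.8, 216 and 363 in small intestine and 207, 197, 210.1 and 203 in kidney. Liver lay above the other tissues in each library. Its reads in colon and spleen were 0 in all libraries, so that the pooled liver level was at least 868-fold that of colon and at least 2692-fold that of spleen, taking 3 reads over the 4 libraries as the floor of the tissue without reads. Slc2a2 made up 96.6% ± 1.26 (SD, n = 4) of the reads of the 5 transporters in liver, 61.5% ± 3.36 in small intestine and 52.2% ± 0.911 in kidney. The other large share in the last 2 tissues was that of Slc2a5 (ENSMUSG00000028976, chromosome 4, 150119283 to 150144169), which encodes the fructose carrier GLUT5, at 32.7% ± 2.51 and 24.6% ± 1.90. The level of Slc2a5 was 156, 123, 127 and 206 CPM in small intestine and 87.4, 104, 98.1 and 95.5 CPM in kidney, with no overlap, and at most 11.1 CPM in any library of the other 13 tissues. In liver it was 2.20 to 7.38 CPM. Kidney exceeded liver for Slc2a5 (log2 fold change of liver over kidney -4.41 ± 0.20, edgeR adjusted p = 3.12e-13).

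Slc2a3 (ENSMUSG00000003153, chromosome 6, 122727809 to 122801640) encodes GLUT3, the high-affinity carrier of neurons and leukocytes. It was highest in blood, at 287, 292, 339.7 and 338 CPM, followed by bone marrow at 118, 123, 120.01 and 124 and brain at 80.9, 88.5, 84.6 and 84.6. The 3 tissues did not overlap. It was called higher in each (log2 fold change 5.21 ± 0.11, edgeR adjusted p = 2.63e-44 for blood, 3.74 ± 0.13 for bone marrow and 3.19 ± 0.13 for brain). Blood exceeded bone marrow by a log2 fold change of 1.36 ± 0.09. Liver, kidney and skin stood at the other end, at no more than 2.44 CPM in any library, and Slc2a3 was called lower in all 3 as well as in heart, colon, small intestine and lung. The lung and colon calls were lost with library totals, and also without replicate 2 for lung (-0.65) and without replicate 1 for colon (-0.95).

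Slc2a4 (ENSMUSG00000018566, chromosome 11, 69942539 to 69948188) encodes GLUT4, the insulin-regulated carrier of muscle and fat. Heart held 382, 387, 355 and 353 CPM, 8.69 times the mean of skin, the next tissue, where the libraries read 40.2, 36.1, 45.5 and 48.1. It made up 94.3% ± 0.529 of transporter reads in heart and 44.3% ± 1.69 in skin. Blood had no Slc2a4 read in any library, which puts the heart level at least 1085-fold above blood. In the lymph nodes Slc2a4 varied with the library. It was 3.23, 0.633, 23.98 and 26.1 CPM in replicates 1 to 4 of the inguinal and 12.5, 35.9, 36.9 and 35.03 CPM in those of the mesenteric node. The summed level of 5 adipocyte markers was 59.2, 3.17, 682 and 763 CPM in the same inguinal and 459, 1333, 1549.8 and 2659 CPM in the same mesenteric libraries. The part of adipose tissue in these values was not tested.

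**Figure D2:**
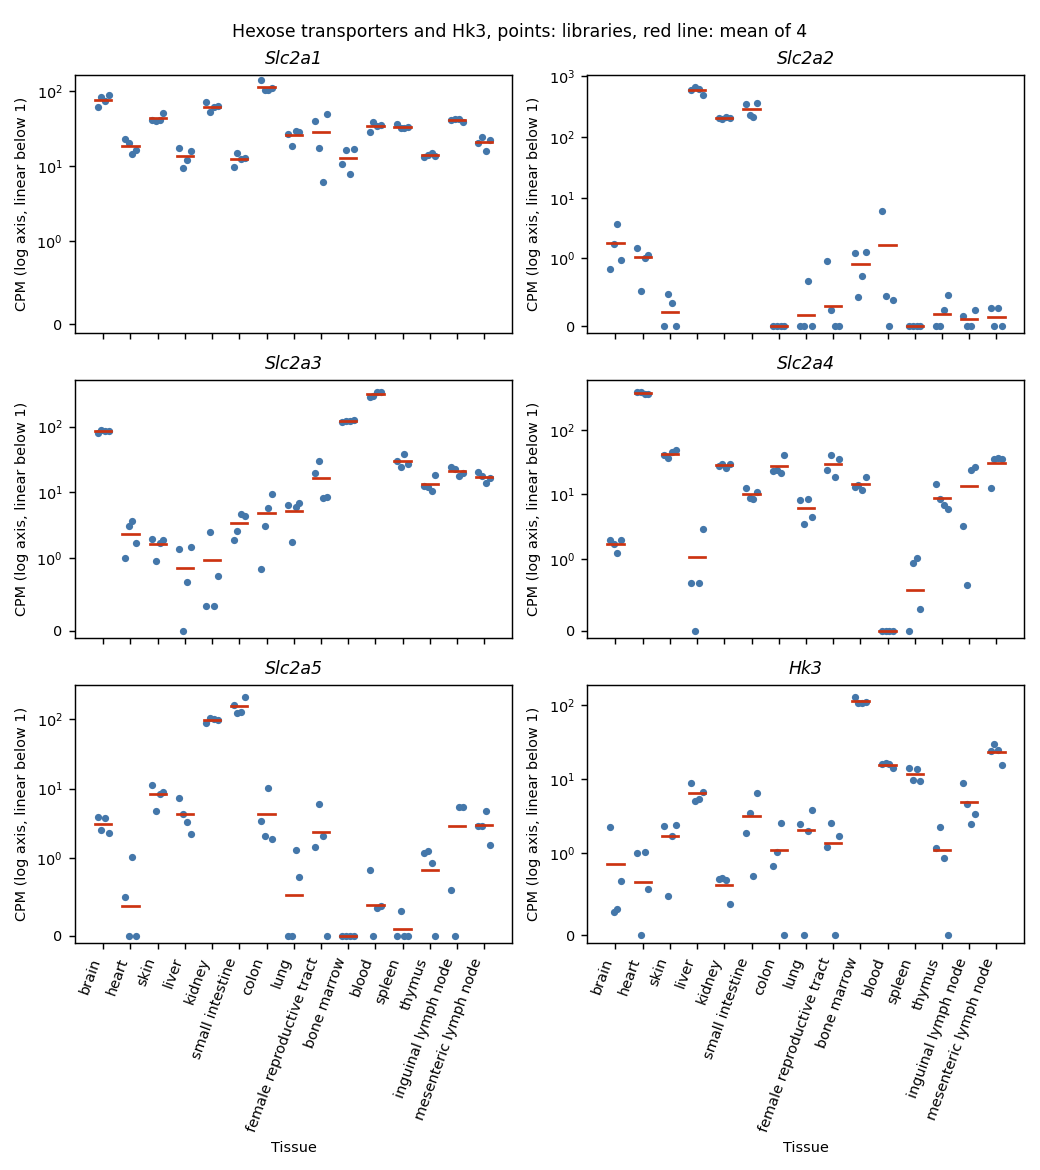
Levels of the 5 hexose transporters and of hexokinase 3 (CPM, log axis that is linear below 1) in the 15 tissues, with 1 point per library and a red line at the mean of 4. Slc2a2 stands at 197 CPM or more in liver, small intestine and kidney and at or below 5.95 CPM elsewhere, and Slc2a4 stands at 353 to 387 CPM in the 4 heart libraries.

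The hexokinases trap glucose as glucose-6-phosphate. Because the 3 genes differ in length and 3' ends, their shares of hexokinase reads are compared between tissues and not with each other. Such shares do not depend on how libraries were scaled. Hk1 (ENSMUSG00000037012, chromosome 10, 62268855 to 62379908), the form of brain and red cells that binds mitochondria, made up 96.2% ± 1.04 of hexokinase reads in brain and 91.7% ± 2.39 in kidney, but 24.9% ± 0.741 in heart and 26.3% ± 5.71 in small intestine. Its level was 135, 146, 159.8 and 154 CPM in brain and 151, 149, 142 and 147 in heart, and the libraries of the 2 tissues overlapped. It was called higher in brain (log2 fold change 1.68 ± 0.09, edgeR adjusted p = 1.09e-24), heart, colon, bone marrow and blood, and lower in liver (-3.29 ± 0.20) and small intestine (-2.22 ± 0.15). The heart call was lost with library totals (0.30).

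Hk2 (ENSMUSG00000000628, chromosome 6, 82725025 to 82774454), the insulin-responsive form of muscle and fat, was highest in heart at 476, 441, 409 and 444 CPM. Skin followed at 70.4, 62.7, 83.8 and 90.03 CPM. Heart lay above every other library (log2 fold change 4.35 ± 0.13, edgeR adjusted p = 1.54e-37) and exceeded skin by 2.48 ± 0.10, while brain, at 2.23, 7.37, 4.07 and 6.23 CPM, was called lower (-2.58 ± 0.28). Liver, at 2.68 to 8.05 CPM, kidney, at 4.76 to 10.8 CPM, and thymus were called lower as well. In the female reproductive tract Hk2 was 46.2, 42.9, 43.5 and 131 CPM, with replicate 4 well above the rest. The reproductive tract call (1.36 ± 0.19) became 0.94 without the 7 libraries named above and 0.95 without replicate 4.

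Hk3 (ENSMUSG00000025877, chromosome 13, 55005985 to 55021385), a hexokinase of myeloid cells, was led by bone marrow, at 128, 106, 107 and 111 CPM. The next tissue, mesenteric lymph node, had 23.7, 29.4, 24.4 and 15.3 CPM, and blood 16.1, 16.4, 16.1 and 13.97. Hk3 made up 39.6% ± 2.44 of hexokinase reads in bone marrow, 25.9% ± 6.15 in mesenteric lymph node, 18.02% ± 2.64 in spleen and at most 6.99% in the mean of any tissue that is not immune. It was called higher in bone marrow (log2 fold change 5.34 ± 0.16, edgeR adjusted p = 3.60e-37) and exceeded blood there (log2 fold change of blood over bone marrow -2.87 ± 0.13). The 5 neutrophil markers summed to 32651 to 37019.7 CPM in bone marrow and 1003 to 1739.7 CPM in blood, and their part in the Hk3 difference was not tested. Liver is left out of the hexokinase shares, since it had 99 reads of the 3 genes in all and 18 in its poorest library. No liver library held more than 8.78 CPM of Hk1, 8.05 of Hk2 or 8.72 of Hk3.

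Phosphofructokinase commits hexose phosphate to glycolysis. Pfkm (ENSMUSG00000033065, chromosome 15, 98092589 to 98132451), the muscle form, made up 83.8% ± 1.65 of phosphofructokinase reads in heart, 60.4% ± 3.36 in skin and 44.6% ± 1.29 in brain, and at most 32.5% in the mean of any other tissue. Its level was 770.3, 797, 739.6 and 734 CPM in heart, 153, 190.1, 189 and 201 in skin and 181, 180.1, 171 and 178 in brain. Heart stood clear of the other 2, whose libraries overlapped (log2 fold change 5.38 ± 0.08, edgeR adjusted p = 7.03e-52 for heart, 3.18 ± 0.10 for skin and 3.13 ± 0.10 for brain). Pfkp (ENSMUSG00000021196, chromosome 13, 6579768 to 6648777), the form first described in platelets, reached 82.2% ± 2.76 in small intestine and fell to 6.98% ± 0.705 in heart. Its level was 211, 175, 147 and 176 CPM in small intestine and 162, 163, 160.4 and 154 in brain, which overlapped, and 4.70, 11.5, 1.99 and 8.78 in liver, where it was called lower (log2 fold change -3.24 ± 0.18, edgeR adjusted p = 3.46e-24). Of the last 1001 exon bases of Pfkp, 748 overlap Pitrm1 on the other strand, which had 2229 reads beside 10855 of Pfkp, so reads of the pair may be mixed. Pfkl (ENSMUSG00000020277, chromosome 10, 77986947 to 78010083), the liver form, had its largest share in liver, 53.3% ± 12.3, with single libraries from 42.1% to 65.1%. Its level in liver was no more than 31.5 CPM, against 121, 92.4, 78.6 and 66.7 CPM in colon and 71.99, 89.3, 95.3 and 78.6 in heart, which overlapped.

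**Figure D3:**
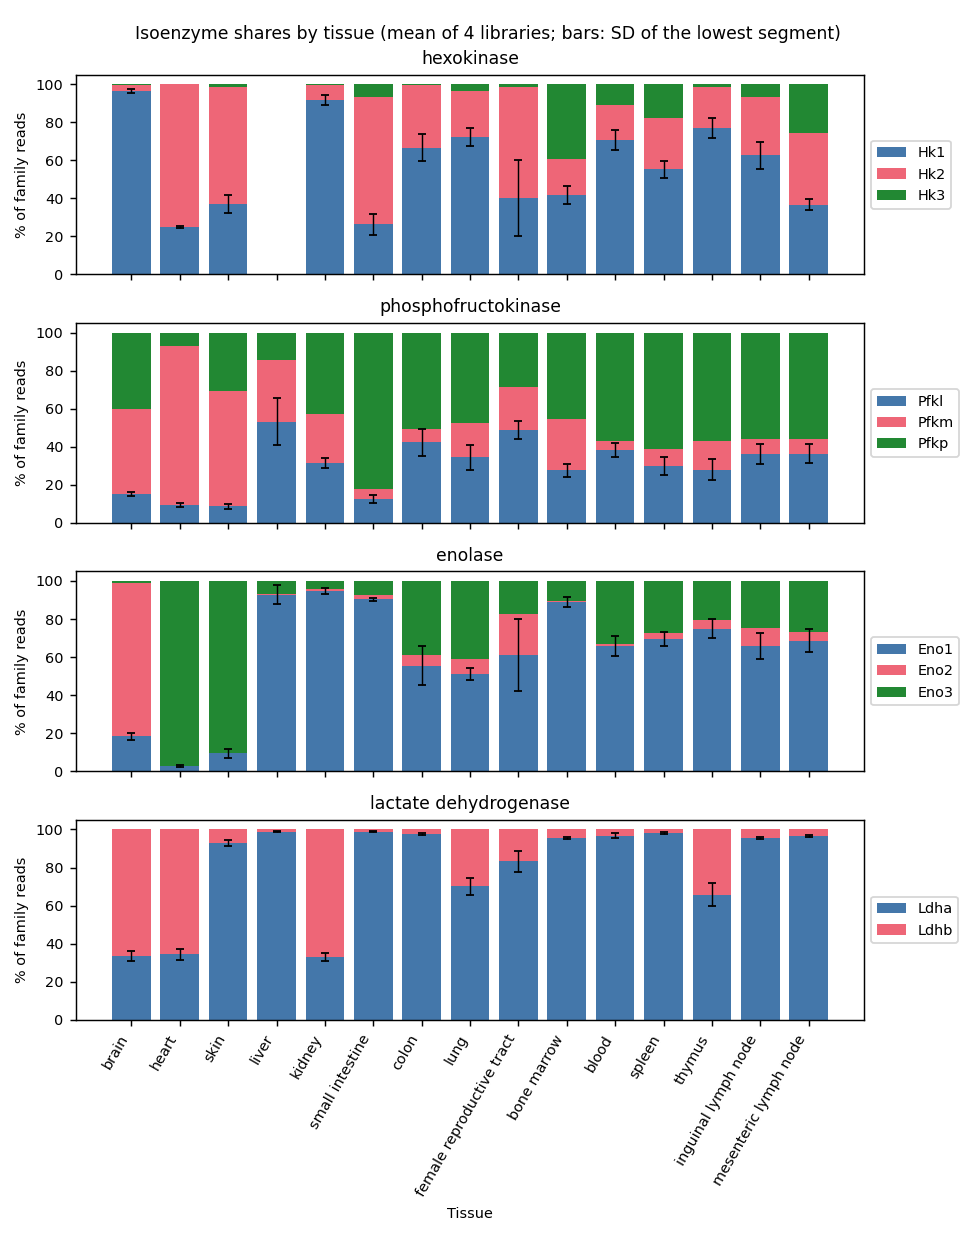
Share of family reads (percent, bars from 0 to 100) of each isoenzyme of hexokinase, phosphofructokinase, enolase and lactate dehydrogenase in the 15 tissues, as the mean of 4 libraries, with the SD of the lowest segment as error bar; hexokinase in liver is blank for want of reads. Eno3 fills 97.1% of the heart bar and 90.1% of the skin bar, Eno2 80.7% of the brain bar, and Ldhb about equal parts of kidney (67.1%), brain (66.4%) and heart (65.5%).

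Aldolase splits fructose-1,6-bisphosphate. Aldoc (ENSMUSG00000017390, chromosome 11, 78322968 to 78327781), the brain form, known from astrocytes and Purkinje cells, had 1029.8, 1035, 988 and 1037 CPM in brain. The next tissue, kidney, had 25.5, 21.99, 27.3 and 27.97 CPM, 39.8 times less on average. Aldoc made up 45.7% ± 0.645 of the reads of Aldoa and Aldoc together in brain, 10.8% ± 4.34 in liver and at most 4.13% in the mean of any other tissue. It was called higher in brain (log2 fold change 7.29 ± 0.09, edgeR adjusted p = 1.52e-57), and in kidney (1.60 ± 0.15), colon (1.25 ± 0.22), the reproductive tract (1.21 ± 0.18) and liver (1.08 ± 0.20, but 0.03 with library totals). Without replicate 2 the colon and liver differences of Aldoc were 0.83 and 0.88, under the threshold. Aldoa (ENSMUSG00000030695, chromosome 7, 126795234 to 126800751), the muscle form, was led by heart at 3462, 3429, 3358 and 3352 CPM and skin at 2301, 2290.03, 2473 and 2719 CPM, followed by brain at 1230.4, 1241, 1197 and 1185. These did not overlap (log2 fold change 2.84 ± 0.08, edgeR adjusted p = 1.96e-38 for heart). Liver, at 146, 123, 181 and 179 CPM, had the lowest mean (-1.91 ± 0.13) and overlapped thymus. The Aldoa level of heart held with library totals as a call, although skin then had the higher mean. Of 2 rows with the symbol Aldoa the one with 119450 reads was used, and the other held 7.

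The steps from triose phosphate to phosphoglycerate have mostly 1 gene each. Tpi1 (ENSMUSG00000023456, chromosome 6, 124810586 to 124814296) was 546, 520.5, 499 and 497 CPM in heart and 541, 418, 418 and 559 in small intestine, which overlapped, and at most 92.3 CPM in any library of blood, bone marrow, spleen, thymus, lung or lymph node. It was called lower in 6 of these 7 tissues, blood being the exception (-0.94 ± 0.14). The bone marrow call (-1.04 ± 0.14) was at the threshold, and was -0.93, -0.95 and -0.98 without replicate 2, 3 or 4. Gapdh (ENSMUSG00000057666, chromosome 6, 125161715 to 125166467) was 1032, 988, 876 and 743 CPM in heart, above every other library (log2 fold change 2.28 ± 0.14, edgeR adjusted p = 2.98e-21). The next tissues were liver, 339.6 to 517 CPM, and kidney, 393 to 454 CPM, which overlapped. The reproductive tract read 108, 135, 10.4 and 21.2 CPM, a gap of several fold between replicates 1 and 2 and the other two, and its call (-1.48 ± 0.21) became -0.79 without the 7 libraries named above. Near copies of the Gapdh 3' end are found in 99 other genes, 93 of them pseudogenes, which held 4523 reads beside 38253, so its level is less certain. Pgk1 (ENSMUSG00000062070, chromosome X, 106187100 to 106203699) was 88.6, 100.1, 84.1 and 66.3 CPM in heart, 87.2, 94.6, 84.9 and 55.6 in liver and 68.7, 81.3, 85.99 and 74.6 in kidney, all overlapping. Gpi1 (ENSMUSG00000036427, chromosome 7, 34201330 to 34230336), which acts before the phosphofructokinase step, was 381, 406, 389 and 386 CPM in heart, with no other library above 303 (log2 fold change 1.27 ± 0.07, edgeR adjusted p = 1.46e-22). Near copies of the Gpi1 3' end lie in 5 other genes, which held 12919 reads beside 27799, so its level is less certain too. The heart calls of Gpi1, Tpi1, Gapdh and Pgk1 were lost with library totals, at -0.08, 0.57, 0.92 and 0.25.

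Phosphoglycerate mutase and enolase have forms known from muscle, and these were high in heart and skin. Pgam2 (ENSMUSG00000020475, chromosome 11, 5801640 to 5803733), the muscle mutase, had 738, 761, 662 and 675 CPM in heart, 155, 173, 198 and 240.4 in skin and 64.2, 79.6, 78.2 and 74.6 in kidney. The 3 tissues did not overlap, and each was called higher (log2 fold change 8.48 ± 0.12, edgeR adjusted p = 2.34e-53 for heart, 6.46 ± 0.14 for skin and 4.995 ± 0.17 for kidney). In kidney the 6 skeletal muscle markers summed to 1.35 to 4.42 CPM, and the part of muscle in its Pgam2 level was not tested. Elsewhere Pgam2 reached at most 12.4 CPM, in liver replicate 4. No share of the mutase reads is given, since Pgam1 (ENSMUSG00000011752, chromosome 19, 41911923 to 41918660), the form of most other tissues, had 1.70 to 2.51 CPM in its highest tissue, brain, and no reads in lung. No near copy of at least 100 bases and 95% identity and no overlapping gene was found for the last 500 bases of Pgam1, and why it had so few reads was not tested.

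Eno3 (ENSMUSG00000060600, chromosome 11, 70657202 to 70662513), the muscle enolase, had 1805, 1814, 1634 and 1595 CPM in heart and 486, 581, 578 and 726 in skin. It made up 97.1% ± 0.390 of enolase reads in heart and 90.1% ± 2.70 in skin, and 0.843% ± 0.165 in brain. It was called higher in heart (log2 fold change 6.15 ± 0.10, edgeR adjusted p = 1.74e-51), skin (4.51 ± 0.11) and colon (1.56 ± 0.16). The colon libraries read 71.8, 168, 55.99 and 59.1 CPM, replicate 2 lying apart, and the difference was 0.96 without replicate 2. In liver it was 5.37 and 5.77 CPM in replicates 1 and 2 and 19.9 and 21.2 in replicates 3 and 4, the libraries with more skeletal muscle markers. The part of muscle in these liver values was not tested. Lung replicate 4, at 22.8 CPM, lay within the range of the other lung libraries at 27.5, 24.3 and 22.5. Eno2 (ENSMUSG00000004267, chromosome 6, 124760053 to 124769673), the neuronal enolase, had 605, 603, 623 and 629 CPM in brain and made up 80.7% ± 1.84 of its enolase reads. Its next tissue was the inguinal lymph node, at 14.99, 13.9, 10.6 and 15.3 CPM, 44.8 times less. Eno2 was called higher in brain (log2 fold change 7.56 ± 0.12, edgeR adjusted p = 9.18e-52), and at low levels in inguinal lymph node (1.69 ± 0.21), colon (1.49 ± 0.34) and the reproductive tract (1.31 ± 0.27). Eno1 (ENSMUSG00000063524, chromosome 4, 150236721 to 150248879), the form of most cells, was 209, 210.1, 203 and 185 CPM in kidney and 220.1, 217, 186 and 151 in liver, which overlapped, and 44.8 to 54.3 in heart. It made up 94.7% ± 1.83 of enolase reads in kidney, 92.8% ± 5.10 in liver and 2.77% ± 0.413 in heart.

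A pair of comparisons set muscle and neural forms against each other. Of 24 members tested between heart and skin, 14 (58.3%) were higher in heart, where 20% of all genes were, and 4 (16.7%) lower, where 24.9% were. Heart exceeded skin for Ldhb (log2 fold change 5.06 ± 0.12, edgeR adjusted p = 1.59e-17), Slc2a4 (3.07 ± 0.10), Hk2 (2.48 ± 0.10) and Pfkm (2.01 ± 0.08), and by less for Pgam2 (1.85 ± 0.11) and Eno3 (1.49 ± 0.09). Skin was higher for Slc2a5, Aldoc, Pck1 and Slc2a1. This pair depended on scaling, and with library totals 3 members were higher and 7 lower, Ldhb, Slc2a4 and Hk2 being the 3 still higher. Of 24 tested between brain and heart, 6 (25%, all genes 31.2%) were higher in brain, namely Aldoc (log2 fold change 9.34 ± 0.17, edgeR adjusted p = 1.20e-25), Eno2 (8.20 ± 0.15), Slc2a3 (5.17 ± 0.19), Slc2a1, Eno1 and Pfkp. Heart was higher for 10 (41.7%, all genes 22.2%), led by Eno3 (-8.02 ± 0.10), Slc2a4 (-7.68 ± 0.13), Pgam2 (-7.52 ± 0.11) and Hk2 (-6.44 ± 0.14). With library totals the counts were 9 and 5. The member medians were 1.35 between heart and skin and -0.69 between brain and heart, beside -0.11 and 0.17 for all genes.

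The last steps of glycolysis are served by pyruvate kinase and lactate dehydrogenase, and for Pkm liver and heart had the lowest and the highest mean. Pkm (ENSMUSG00000032294, chromosome 9, 59656368 to 59679375), the pyruvate kinase of muscle and most other tissues, was 1176, 1194, 1085 and 1054 CPM in heart and 33.5, 38.3, 39.8 and 33.7 CPM in liver, the lowest tissue (log2 fold change -3.55 ± 0.15, edgeR adjusted p = 4.83e-30). Pklr (ENSMUSG00000041237, chromosome 3, 89136142 to 89146784), the form of liver and red cells, had 23.5, 39.7, 14.6 and 16.1 CPM in liver and 13.8, 9.99, 10.4 and 16.2 in small intestine, with overlapping libraries, and no read in 7 tissues, among them heart, skin and lung. The pooled liver level was at least 59.5-fold that of heart and at least 106-fold that of spleen. It made up 37.8% ± 10.5 of pyruvate kinase reads in liver, 1.91% ± 0.162 in small intestine and under 1% in every other tissue mean. Bone marrow, whose erythroid markers summed to 123664 to 160095 CPM, had 2.88, 4.73, 1.12 and 2.95 CPM of Pklr. Pklr had 316 reads in all, and 711 of its last 1001 exon bases overlap Hcn3 on the other strand, which had 433 reads, so its level is uncertain.

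Ldhb (ENSMUSG00000030246, chromosome 6, 142490249 to 142507957), the B subunit, made up 67.1% ± 2.15 of lactate dehydrogenase reads in kidney, 66.4% ± 2.49 in brain and 65.5% ± 2.79 in heart. The 3 shares overlapped. Thymus (34.3% ± 5.95) and lung (29.9% ± 4.62) came next, and small intestine (1.12% ± 0.224) and liver (1.19% ± 0.354) last. The Ldhb level was 1303, 1274, 1037 and 1086 CPM in heart, 752, 771, 701 and 663 in kidney and 278, 279, 264 and 269.6 in brain, without overlap. Thymus had 154, 123, 142 and 109.6 CPM, while spleen, blood, bone marrow and both lymph nodes had at most 10.5 CPM in a library. Ldhb was called higher in thymus (log2 fold change 2.19 ± 0.09, edgeR adjusted p = 9.34e-29) and lower in those 5 immune tissues, with -3.84 ± 0.19 in spleen. Ldha (ENSMUSG00000063229, chromosome 7, 46841475 to 46855627), the A subunit, was 918, 826, 742 and 822 CPM in small intestine, 763, 765, 660.2 and 688 in colon and 546, 570.2, 611 and 905 in liver, which all overlapped. It was called higher in these 3 and in heart, and lower in brain (log2 fold change -1.17 ± 0.13, edgeR adjusted p = 6.80e-12), blood (-1.37 ± 0.14) and spleen (-1.13 ± 0.13). The heart call of Ldha was lost with library totals (-0.22). The liver call was lost with them too (0.19), and it stood just under the threshold without the 7 libraries named above (0.998).

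Among the genes of gluconeogenesis, G6pc and Fbp1 set liver, kidney and small intestine apart from the other tissues, while the other 4 had other patterns. G6pc (ENSMUSG00000078650, chromosome 11, 101367561 to 101377903), the catalytic subunit that releases free glucose, had 1037, 1836, 1409 and 981 CPM in liver, 362, 331, 432 and 492 in kidney and 34.5, 24.8, 34.1 and 39.5 in small intestine. The 3 tissues did not overlap. No library of the other 12 reached more than 5.10 CPM, and lung and spleen had no read, which puts the pooled liver level at least 2286-fold and at least 5981-fold above them. Liver exceeded kidney (log2 fold change 1.75 ± 0.17, edgeR adjusted p = 2.64e-08) and kidney exceeded small intestine (log2 fold change 3.59 ± 0.15, edgeR adjusted p = 1.08e-13). G6pc made up 99.2% ± 0.295 of glucose-6-phosphatase reads in liver, 86.9% ± 1.999 in kidney and 39.8% ± 6.65 in small intestine. G6pc3 (ENSMUSG00000034793, chromosome 11, 102189620 to 102194081), the form of most cells and known from neutrophils, varied far less. It was highest in colon, 87.9, 63.7, 77.7 and 83.8 CPM, and lowest in liver, 12.7, 9.38, 10.6 and 8.78 CPM (log2 fold change -1.81 ± 0.19, edgeR adjusted p = 1.31e-12).

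Fbp1 (ENSMUSG00000069805, chromosome 13, 62864753 to 62888282), the fructose bisphosphatase of liver and kidney, had 1859, 2022, 1686 and 1447 CPM in liver, 1032, 1018, 1109 and 1030.4 in kidney and 38.2, 47.4, 51.6 and 70.4 in small intestine. Liver lay above kidney in every library, but the difference (log2 fold change 0.78 ± 0.09, edgeR adjusted p = 4.55e-07) was under the fold threshold. Spleen and mesenteric lymph node had no read, for a liver level at least 7988-fold and at least 8299-fold higher. Fbp2 (ENSMUSG00000021456, chromosome 13, 62836877 to 62858422), the muscle form, was instead highest in small intestine, at 405, 331, 302 and 389 CPM, and colon, at 168, 132, 165 and 151 CPM. Heart had 42.3, 32.9, 43.1 and 45.5 CPM, kidney 26.5, 30.4, 26.98 and 35.8 and skin 9.19, 10.5, 13.6 and 32.1. Small intestine and colon stood clear of each other and of the rest. Skeletal muscle markers summed to 15.4 to 37.8 CPM in small intestine and 20.1 to 31.4 CPM in colon, and smooth muscle markers to 1527 to 1884 and 6208 to 6843 CPM. The part of muscle was not tested. Small intestine exceeded kidney (log2 fold change of kidney over small intestine -3.60 ± 0.13). Bone marrow, spleen and inguinal lymph node had no Fbp2 read, which places small intestine at least 1149.7-fold, at least 1601-fold and at least 2316-fold above them. Fbp2 made up 87.2% ± 3.01 of the reads of the 2 genes in small intestine, 98.4% ± 1.23 in colon, 2.78% ± 0.443 in kidney and 0.0673% ± 0.0790 in liver.

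Pck1 (ENSMUSG00000027513, chromosome 2, 173153048 to 173159273), the cytosolic carboxykinase, had 2033, 2370.4, 3292 and 3667 CPM in liver and 1154, 1534, 1339 and 1715 in kidney. All liver libraries were above all kidney libraries. The difference between them (log2 fold change 1.03 ± 0.16, edgeR adjusted p = 1.21e-05) was just over the fold threshold, and it was 0.41 with library totals and 0.67 without the 7 libraries named above, which leaves liver replicates 1 and 2. Without replicate 3 or 4 it was 0.92 or 0.98. Mesenteric lymph node had the next mean, 207 ± 221 CPM, with libraries on both sides of small intestine, at 211, 139, 142 and 106 CPM, and colon, at 104.8, 70.8, 94.4 and 145. Pck1 was called higher in liver (log2 fold change 7.22 ± 0.29, edgeR adjusted p = 1.10e-30), kidney (6.17 ± 0.30), small intestine, colon, mesenteric lymph node and the reproductive tract. It was called lower in spleen (-5.46 ± 1.01), brain, bone marrow, blood and heart. In the lymph nodes Pck1 differed between libraries of one tissue by more than an order of magnitude. The mesenteric libraries held 16.8, 76.5, 222 and 512 CPM and the inguinal ones 4.70, 0.211, 83.8 and 103. In both nodes the order of Pck1 across the 4 libraries was that of the adipocyte markers given above for Slc2a4, and the part of adipose tissue was not tested. In the reproductive tract Pck1 was 36.7, 87.3, 26.9 and 89.9 CPM in replicates 1 to 4 and the same markers summed to 1173, 2285, 389 and 662 CPM. The order of Pck1 over these 4 libraries was not that of the markers, and the reproductive tract call was lost without replicate 2 (0.94). The heart call was lost without replicate 3 (-2.10, edgeR adjusted p = 0.0829). Pck2 (ENSMUSG00000040618, chromosome 14, 55540266 to 55551242), the mitochondrial form, was highest in bone marrow, 92.6, 80.01, 93.9 and 89.5 CPM, and blood, 65.4, 55.7, 51.9 and 61.7 CPM, without overlap (log2 fold change 1.90 ± 0.10, edgeR adjusted p = 1.07e-23 for bone marrow). Short stretches of the Pck2 3' end, of 185 bases at most, recur in 24 other genes. These held 146707 reads beside 5016 of Pck2, so its level is less certain. It made up 98.5% ± 1.17 of carboxykinase reads in bone marrow and 0.374% ± 0.254 in liver.

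**Figure D4:**
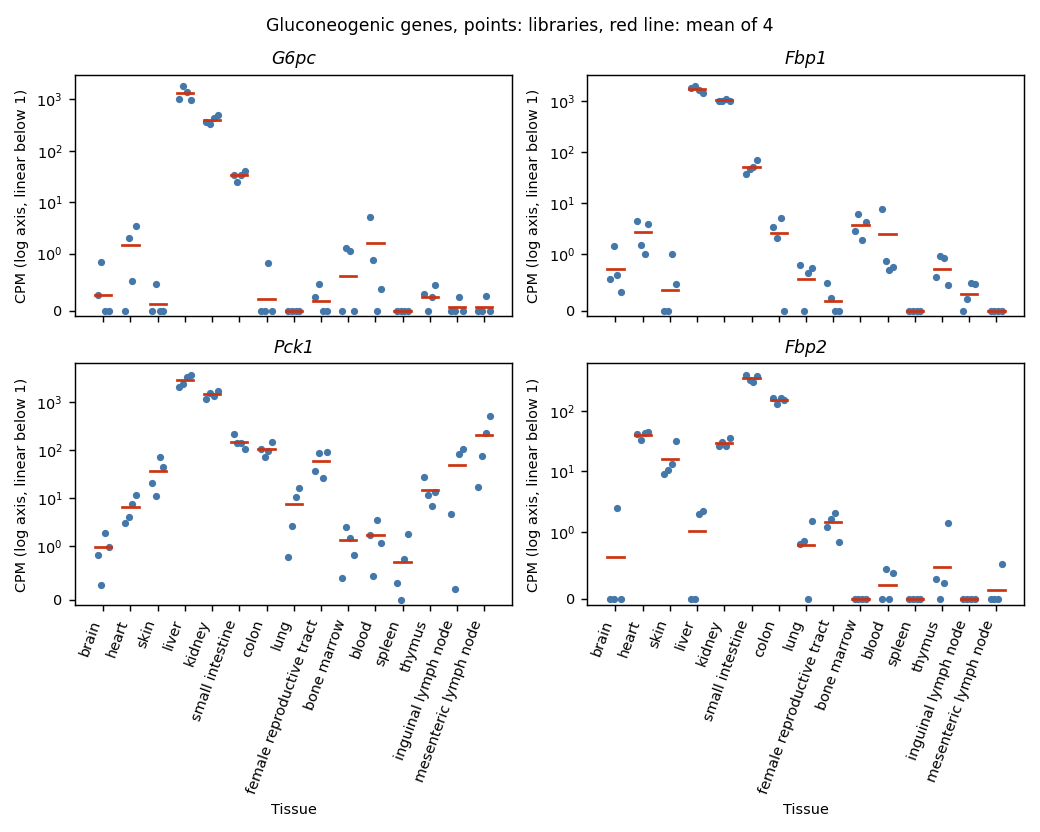
Levels of G6pc, Fbp1, Pck1 and Fbp2 (CPM, log axis that is linear below 1) in the 15 tissues, with 1 point per library and a red line at the mean of 4. Liver leads for G6pc, Fbp1 and Pck1 with means of 1316, 1753 and 2840.4 CPM, while Fbp2 leads in small intestine (357 CPM).

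**Figure D5:**
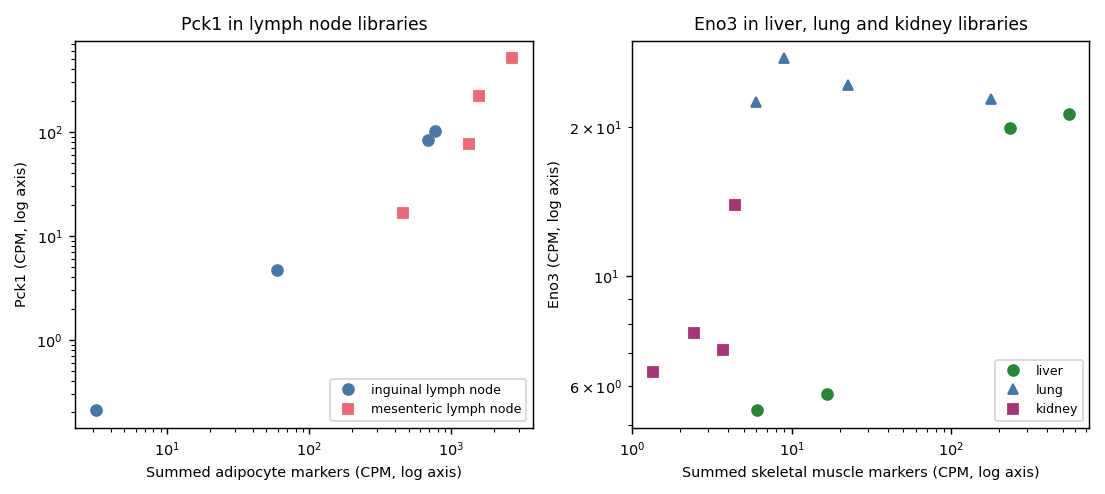
Left, Pck1 (CPM) against the summed level of 5 adipocyte markers (CPM) in the 8 lymph node libraries, both on log axes, and right, Eno3 against the summed level of 6 skeletal muscle markers in the 12 liver, lung and kidney libraries. Pck1 runs from 0.211 CPM in the library with 3.17 CPM of adipocyte markers to 512 CPM in that with 2659.

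G6pc, Pck1, Fbp1 and Slc2a2 were called higher in liver, kidney and small intestine, and Pgam2 and Eno3 in heart and skin, so the DNA around the start of these 6 genes is shown. Each sequence, from RefSeq in build GRCm38.p6, covers 250 bases before to 50 bases after the RefSeq start (which for some genes is not the GENCODE start given above), read 5′ to 3′ on the strand of the gene, in lower case with motif matches in capitals. Promoters of 30 of the 32 genes were in the table, and Slc2a3 and Slc2a4 had no entry. The motifs searched on both strands were TATAAA (core of the TATA box), ACGTCA (core of the cAMP response element), GTTAAT (half-site of the factor HNF1), CAGCTG (an E-box used by myogenic factors) and 2 others not marked in these 6 sequences, CACGTG (an E-box) and ACGTG (core of the hypoxia response element), which overlap since the first contains the second. The 4 genes of liver and kidney come first.
G6pc, chr11:101367466-101367765, plus strand: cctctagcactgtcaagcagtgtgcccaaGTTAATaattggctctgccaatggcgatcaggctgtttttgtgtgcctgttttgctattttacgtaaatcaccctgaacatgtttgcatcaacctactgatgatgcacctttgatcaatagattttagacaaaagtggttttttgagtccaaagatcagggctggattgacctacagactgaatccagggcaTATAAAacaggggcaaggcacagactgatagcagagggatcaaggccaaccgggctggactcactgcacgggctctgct
Pck1, chr2:173152823-173153122, plus strand: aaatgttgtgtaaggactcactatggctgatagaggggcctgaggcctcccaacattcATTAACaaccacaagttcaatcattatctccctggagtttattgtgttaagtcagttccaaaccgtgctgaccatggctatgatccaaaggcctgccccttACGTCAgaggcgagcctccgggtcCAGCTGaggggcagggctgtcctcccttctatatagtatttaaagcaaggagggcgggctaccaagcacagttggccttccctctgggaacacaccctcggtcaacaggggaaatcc
Fbp1, chr13:62888233-62888532, minus strand: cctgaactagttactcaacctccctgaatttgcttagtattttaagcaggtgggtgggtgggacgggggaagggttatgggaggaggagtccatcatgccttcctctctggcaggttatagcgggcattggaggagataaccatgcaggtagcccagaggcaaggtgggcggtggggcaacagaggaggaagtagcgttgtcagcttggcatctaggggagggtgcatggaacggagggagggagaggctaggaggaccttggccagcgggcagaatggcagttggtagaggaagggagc
Slc2a2, chr3:28697653-28697952, plus strand: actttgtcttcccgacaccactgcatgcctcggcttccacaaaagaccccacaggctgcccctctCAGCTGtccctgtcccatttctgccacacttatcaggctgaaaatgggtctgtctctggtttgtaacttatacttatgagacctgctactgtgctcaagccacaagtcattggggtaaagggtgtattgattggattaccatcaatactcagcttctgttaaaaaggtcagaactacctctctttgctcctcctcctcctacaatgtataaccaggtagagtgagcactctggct
Pgam2, chr11:5803747-5804046, minus strand: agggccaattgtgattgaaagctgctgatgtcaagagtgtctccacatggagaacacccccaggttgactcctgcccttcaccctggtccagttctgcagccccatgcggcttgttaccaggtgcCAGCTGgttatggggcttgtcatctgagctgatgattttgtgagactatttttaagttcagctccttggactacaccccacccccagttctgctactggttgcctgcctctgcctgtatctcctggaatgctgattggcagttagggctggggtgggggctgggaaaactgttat
Eno3, chr11:70656926-70657225, plus strand: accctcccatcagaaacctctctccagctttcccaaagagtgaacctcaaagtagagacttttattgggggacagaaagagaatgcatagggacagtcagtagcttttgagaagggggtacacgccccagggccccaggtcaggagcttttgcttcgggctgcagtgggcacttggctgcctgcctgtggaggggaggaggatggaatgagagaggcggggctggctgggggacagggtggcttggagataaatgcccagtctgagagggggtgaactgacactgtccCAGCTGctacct

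The G6pc sequence held the TATA core with its first base at -29 from the start and the HNF1 half-site at -221. The Pck1 sequence held the same half-site on the reverse strand at -192, the cAMP response element core at -91 and CAGCTG at -67. G6pc and Pck1 were the 2 of 30 members with GTTAAT, which 7.10% of all 32851 promoters of that length held. Fbp1 had none of the 6 motifs. CAGCTG was found in both muscle genes, at -125 in Pgam2 and 39 in Eno3, but also in Slc2a2 and Pck1, in 8 of 30 members in all and in 16.3% of all promoters. TATAAA was in 4 of 30 members (all promoters 13.6%), ACGTCA in 4 (7.51%), CACGTG in 4 (7.15%) and ACGTG in 14 (19.6%). Those 14 were Hk1, Hk2, Hk3, Pfkm, Aldoa, Aldoc, Gapdh, Pgk1, Pgam1, Pkm, Ldha, G6pc3, Fbp2 and Slc2a1. A match describes these letters and does not show that a factor binds.

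Liver, kidney and small intestine were compared in pairs. Between liver and kidney, 4 of 28 members (14.3%, all genes 15.4%) were higher in liver, namely Pck1, Slc2a2 (log2 fold change 1.57 ± 0.10, edgeR adjusted p = 3.34e-11), G6pc and Pklr (3.27 ± 0.40). Kidney was higher for 12 (42.9%, all genes 21.8%), led by Ldhb (log2 fold change -6.48 ± 0.14, edgeR adjusted p = 6.36e-18), Fbp2 (-4.72 ± 0.40), Slc2a4 (-4.63 ± 0.37), Slc2a5, Pgam2 (-4.03 ± 0.34) and Hk1 (-3.91 ± 0.18). With library totals Pck1 and Slc2a2 were no longer called, leaving 2 higher and 17 lower. Between liver and small intestine, 4 of 27 (14.8%, all genes 20.2%) were higher in liver, namely G6pc (log2 fold change 5.36 ± 0.23, edgeR adjusted p = 1.54e-12), Fbp1 (5.13 ± 0.19), Pck1 (4.30 ± 0.23) and Slc2a2 (1.08 ± 0.17). The 9 lower (33.3%, all genes 24.2%) were Fbp2 (-8.28 ± 0.30), Slc2a5 (-5.07 ± 0.27), Pfkp (-4.67 ± 0.25), Pkm (-4.10 ± 0.17), Slc2a4, Hk2, G6pc3, Pck2 and Aldoa. The Slc2a2 difference was 0.90 and 0.94 without replicate 2 or 3, and 0.23 with library totals, where 3 members were higher and 14 lower. Between kidney and small intestine, 11 of 28 (39.3%, all genes 20.9%) were higher in kidney, among them Ldhb (log2 fold change 6.27 ± 0.14, edgeR adjusted p = 9.95e-18), Fbp1 (4.31 ± 0.15), G6pc and Pck1 (3.24 ± 0.17). Pgam2, also higher in kidney, had 3 reads in small intestine. The 7 lower (25%, all genes 20.7%) were Fbp2, Pklr, Hk2, Pfkp, Ldha, Pkm and Pck2. The member medians of the 3 pairs were -0.69, -0.18 and 0.43, beside -0.05, -0.04 and 0.01 for all genes.

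Blood and bone marrow share leukocytes. Of 21 tested, 3 (14.3%, all genes 16.4%) were higher in blood, Eno3 (log2 fold change 2.05 ± 0.17, edgeR adjusted p = 7.49e-10), Slc2a1 (1.41 ± 0.20) and Slc2a3. The 5 lower (23.8%, all genes 17.9%) were Slc2a4, Hk3, Pfkm (-2.29 ± 0.26), Ldhb (-1.27 ± 0.30) and Hk2 (-1.11 ± 0.16). Platelet markers summed to 4586 to 7092 CPM in blood and 712 to 1096 CPM in bone marrow, and their part in these differences was not tested. The member median was -0.23, beside 0.01 for all genes.

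Lists of other genes around these steps were counted in the same fit. Of 19 glycogen genes, 13 were called higher in heart, 10 in liver and 8 in skin, and 2, 5 and 1 lower. Of all genes 20.7%, 18.4% and 18.4% were higher in these tissues and 12.9%, 16.7% and 6.38% lower. With library totals the higher counts were 9, 8 and 9. Ppp1r3a, the muscle subunit that brings a phosphatase to glycogen, was 223 ± 19.3 CPM in heart and 56.3 ± 5.43 in skin. Gys2, the liver glycogen synthase, was 128 ± 38.7 CPM in liver and 8.84 ± 1.02 in kidney. Among 12 genes of pyruvate entry and oxidation, 10 were higher in heart, 9 in kidney (all genes 21.8%) and 6 in liver, or 7, 6 and 3 with library totals. In blood 8 and in bone marrow 7 of them were lower, where 17.8% and 16.1% of all genes were, and in bone marrow 4 without replicate 4. Pdk4 and Pdk2, kinases that switch off pyruvate dehydrogenase, were 514 ± 264 and 429 ± 34.1 CPM in heart (5.46 ± 0.19 and 3.85 ± 0.11), Pdk4 with a wide spread.

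The pentose phosphate list, which makes NADPH and ribose from glucose-6-phosphate, took another course. Of 7 genes, 5 were higher in bone marrow and 3 in small intestine, while 5 were lower in brain and 4 in heart, or 7 in heart with library totals. The shares of all genes were 17.6% and 19.9% higher, and 16.1% and 12.9% lower. G6pdx, its first enzyme, was 118 ± 8.49 CPM in bone marrow (log2 fold change 2.09 ± 0.11, edgeR adjusted p = 3.53e-24) and Taldo1 749 ± 43.96 CPM in blood (1.82 ± 0.06). Among 13 other hexose enzymes, 7 were higher in kidney and 7 in small intestine, where 21.8% and 19.9% of all genes were, or 4 and 5 with library totals. Hkdc1, a hexokinase-like gene, was 223 ± 38.3 CPM in small intestine and 33.7 ± 18.5 in colon. Of 9 other hexose carriers tested, 6 were higher in kidney and 4 in small intestine, beside the same shares of all genes. The tenth on the list, Slc5a2, had too few reads. Slc5a1, the sodium-glucose cotransporter of the gut, was 1597 ± 297 CPM in small intestine and 136 ± 13.04 in colon, and Slc5a9, a related carrier, 42.6 ± 4.53 CPM in kidney and 39.8 ± 3.40 in small intestine.

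Of 4 genes tested that serve monocarboxylate (lactate and pyruvate) transport, 2 were higher in heart, 2 in bone marrow and 2 in small intestine. In these tissues 20.7%, 17.6% and 19.9% of all genes were higher. Slc16a7 was 209.9 ± 20.8 CPM in kidney (log2 fold change 4.18 ± 0.09, edgeR adjusted p = 1.62e-43) and 139.5 ± 19.8 in liver, and Slc16a3 43.02 ± 9.46 CPM in bone marrow (3.35 ± 0.22). The 4 bifunctional enzymes that set fructose-2,6-bisphosphate, the activator of phosphofructokinase, were higher most often in lung (3, all genes 16.8%). Pfkfb1 was 43.3 ± 8.27 CPM in liver (3.66 ± 0.22) and Pfkfb4 70.5 ± 8.93 CPM in small intestine (2.83 ± 0.11).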

How the data were processed

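Gene counts of 60 libraries were deposited by the authors as whole numbers per gene and library. Per the submitters' processing notes, the tools were FastQC, STAR and featureCounts with build mm10; for their versions, and whether strand was used, the sources used here give nothing. The 32 members and the other lists were chosen with earlier results of these data known. Counts were fitted with edgeR 4.0.16 (R 4.3.3; quasi-likelihood test, TMM factors, genes kept by filterByExpr with a minimum count of 10 and total of 15), each tissue against the mean of the other 14 (18562 genes tested). 6 pairs of tissues were fitted on their own 8 libraries. P-values were adjusted by Benjamini-Hochberg over all genes tested, and a call needed an adjusted p under 0.05 and a log2 fold change beyond 1. Shares are a gene's reads over its family's reads in a library and were given where every library of the tissue held at least 20 such reads. Genes without reads in a tissue were given a floor of 3 reads over its 4 libraries in place of a fitted fold. All 32 genes were named; library values were given in full for the 20 whose highest tissue mean was at least 4 times the median tissue and at least 20 CPM, and for the isoenzymes compared with them. From each other list the 2 genes with the highest ratio of top to median tissue were named, apart from a gene that is not reported here. Near copies of the last 500 bases of each gene were sought with blastn 2.17.0 (at least 100 bases at 95% identity). Positions are from GENCODE in mm10. Alternatives were DESeq2 1.42.0, limma 3.58.1, other scalings and filters, leaving out libraries, and a replicate block. On simulated data with known changes, 100% of 3-fold and 100% of 6-fold changes were recovered for liver against the other tissues (16366 genes), and 99% and 100% for liver against kidney (11667 genes). All simulated libraries had a common profile before these changes, with the same set spread for every gene. The changed genes averaged at least 20 reads. Tissues of unlike composition and changes in genes with fewer reads were thus not covered. Depth ran from 353605 to 5211133 reads per library, so a gene at a few CPM rests on a handful of reads. Counting error is larger in the shallow libraries. Among these were all libraries of colon (750212 to 951914 reads) and lung (904970 to 1202994 reads). Replicates 3 and 4 of the female reproductive tract and replicate 1 of blood (953970 reads) were shallow too.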

Additional observations from a re-analysis of the deposited data

Results flagged for a closer look

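In each of 87 groups of 4 libraries of a tissue, the highest and lowest level of a gene were set against the other 3, and 5 groups held a library that lay apart by Dixon's test at the 95% level, where chance gives about 1 in 20. Eno3 in colon was 168 CPM in replicate 2 and 55.99 to 71.8 in the others. Hk2 in the female reproductive tract was 131 CPM in replicate 4 and 42.9 to 46.2 in the others. Slc2a4 in mesenteric lymph node was 12.5 CPM in replicate 1 and 35.03 to 36.9 in the others, and that library also held 459 CPM of adipocyte markers against 1333 to 2659. Aldoc in brain was 988 CPM in replicate 3 and 1029.8 to 1037 in the others. Fbp1 in kidney was 1109 CPM in replicate 3 and 1018 to 1032 in the others.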

How the results depend on the processing

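Scaling by plain library totals in place of TMM changed most. It left 8 members higher in heart (16 with TMM) and 5 in liver (11), 2 higher in liver against kidney (4), 14 lower in liver against small intestine (9), 3 higher and 7 lower in heart against skin (14 and 4), and 5 lower in brain against heart (10). The heart difference of Gpi1 changed sign, to -0.0828 (edgeR adjusted p = 0.375). Among the other lists, 4 other hexose enzymes were higher in kidney (7) and 3 pyruvate genes in liver (6). Another test raised the members' counts of lower calls, given without the share of all genes under that test. With limma-trend 152 calls were lower in sum (96) and with DESeq2 134. With both, 9 were lower in brain (5), 6 in skin (3), 17 in spleen (10) and 14 in thymus (9), with 10 and 9 in inguinal (4) and 11 and 10 in mesenteric lymph node (6) for DESeq2 and limma-trend. Lung had 8 and 12 (5), and with limma-trend the reproductive tract had 12 (5) and colon 5 (3). The cause was not tested. Of 207 tissue calls and 89 pair calls, library totals kept 169 and 67, DESeq2 203 and 89, DESeq2 size factors 203 and 89, no filter on low counts 206 and 87, leaving out mitochondrially encoded genes 203 and 89, limma-trend 200 of the tissue calls, and pair contrasts in the 60-library fit 88 of the pair calls. None of these calls took the opposite sign as a call. Leaving out 1 replicate number at a time kept 190 to 200 and 87 to 89, with 106 to 114 higher and 90 to 96 lower calls in sum. Without 7 libraries in doubt, an alternative chosen after the data were seen, as were those of the other lists, 198 and 88 were kept. The 147 alternative values of isoenzyme shares stayed within 1 SD, but most of them could not have left that range. They were means without 1 of the 4 libraries, which cannot move by 1 SD. No robustness of the shares is read from this. Replicate numbers were not taken to pair the samples, since no label says that they do. Deviations of same-numbered libraries correlated at -0.139 to 0.210 (median 0.0149, 7 of 420 over 0.1). Those of differently numbered libraries correlated at -0.329 to 0.356 (median -0.0055, 16 of 1260 over 0.1). Of 60 libraries, 48 correlated best on average with their own number, a sign of pairing that the labels leave unsettled. A replicate block kept 206 and 89 calls, with 111 higher and 96 lower in sum. Depth limits the genes at a few CPM, and no hexokinase share could be given for liver or transporter share for the female reproductive tract.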

Other observations

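Genes of hepatocyte, tubule and enterocyte function were read at low level in 1 blood library. In blood replicate 1, Slc2a2 was 5.95 CPM, G6pc 5.10 CPM and Fbp1 7.65 CPM, and in replicates 2 to 4 these 3 genes were 0 to 0.442, 0 to 0.885 and 0.715 to 0.885 CPM. In the same library the cardiomyocyte markers summed to 105.3 CPM against 28.3 to 35.8 in the other 3, the proximal tubule markers to 34.8 against 10.6 to 13.6 and the enterocyte markers to 27.2 against 5.43 to 7.08. The hepatocyte markers summed to 155, 38.9, 45.1 and 39.96 CPM in replicates 1 to 4. Brain replicate 3, with 89.6 CPM of enterocyte markers, had 2.51 CPM of Fbp2, and the other brain libraries held no Fbp2 read.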
